A study of Mus musculus with 20 samples.

Results

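The genes described here are 44 genes of T cells and intraepithelial lymphocytes, the lymphocytes that lie between the epithelial cells of the gut. They were chosen by name from a fixed list: the T cell receptor and CD3 chains, coreceptors, signalling proteins, homing receptors, cytotoxic products, natural killer type receptors and 3 transcription factors. All 44 of 44 were found by symbol among the 55487 genes of the deposited table, and 39 passed the filter on low counts. The other 5 (Ctla4, Gzmk, Ifng, Klre1 and Eomes) are given by their counts alone.

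Small intestine of mouse pups was sequenced in bulk from polyA RNA, with 5 libraries in each of 4 groups: pups of control dams and pups of dams with periodontitis, an inflammation of the tissue that holds the teeth, each at an age of 2 weeks or 7 weeks. Pups at 2 weeks still suckle and pups at 7 weeks are weaned. The comparison of dams asks whether their periodontitis marks the offspring's gut, in a study of oral bacteria passed from dam to pup. Here "control pups" and "periodontitis pups" stand for the pups of each kind of dam. Strain, sex, litter and segment of the intestine are not given, so pups that share a dam cannot be told from pups that do not, and p-values measure the spread between these libraries.

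A T cell reads antigen through a receptor of alpha and beta chains, or of gamma and delta chains, which signals through the CD3 chains and the kinases Lck and Zap70. CD4 and CD8 are the coreceptors that bind MHC class II and class I. In the mouse small intestine most intraepithelial lymphocytes carry CD8, many as a homodimer of CD8 alpha without CD8 beta, and many carry the gamma delta receptor. They hold granzymes, reach the gut through the receptor CCR9, stay through integrin alpha E (CD103) with beta 7, and depend on interleukin 15 from the epithelium. Their number grows after birth with microbial and dietary exposure.

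Library totals ran from 14882204 to 42563229 counts. The tissue label was met by its markers: enterocyte genes such as Fabp2 and Apoa4 were among the abundant transcripts, with 6 of them summing to a mean of 30200 CPM (counts scaled to the library total and by trimmed mean of M values) or more in every group. Control library 5 of 2 weeks, the shallowest, stood apart within its group: 19 of the 39 tested members were highest there and 19 were lowest there. Periodontitis library 5 of 7 weeks also stood apart from its group over all genes. The Y-linked gene Ddx3y had a log2 CPM of -4.14 in control library 1 of 2 weeks. In periodontitis libraries 1 and 4 of that age it had -3.41 and -0.37. The other libraries of 2 weeks ran from 4.02 to 6.28, and those of 7 weeks from 4.87 to 7.25. Sex may thus be unequal between the ages. Its part was not tested beyond a fit with Ddx3y as a covariate.

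The member genes as a body were low at 2 weeks and high at 7 weeks. At 2 weeks their levels summed to 44.1 ± 5.47 CPM among control pups and to 46.7 ± 4.7 CPM among pups of dams with periodontitis (SD, n = 5). At 7 weeks the sums were 355 ± 113 CPM and 328 ± 172 CPM. The lowest library of 7 weeks held 180 CPM and the highest of 2 weeks held 52.4 CPM, so the ages did not overlap. Gzma, Gzmb and Ccl5 together made up 50.3% ± 2.2 of the sum in control pups and 51.9% ± 2.35 in periodontitis pups at 7 weeks, against 10.3% ± 1.06 and 6.82% ± 1.76 at 2 weeks (SD, n = 5). In bulk tissue, fewer cells of a type and less RNA per cell cannot be told apart.

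**Figure D1:**
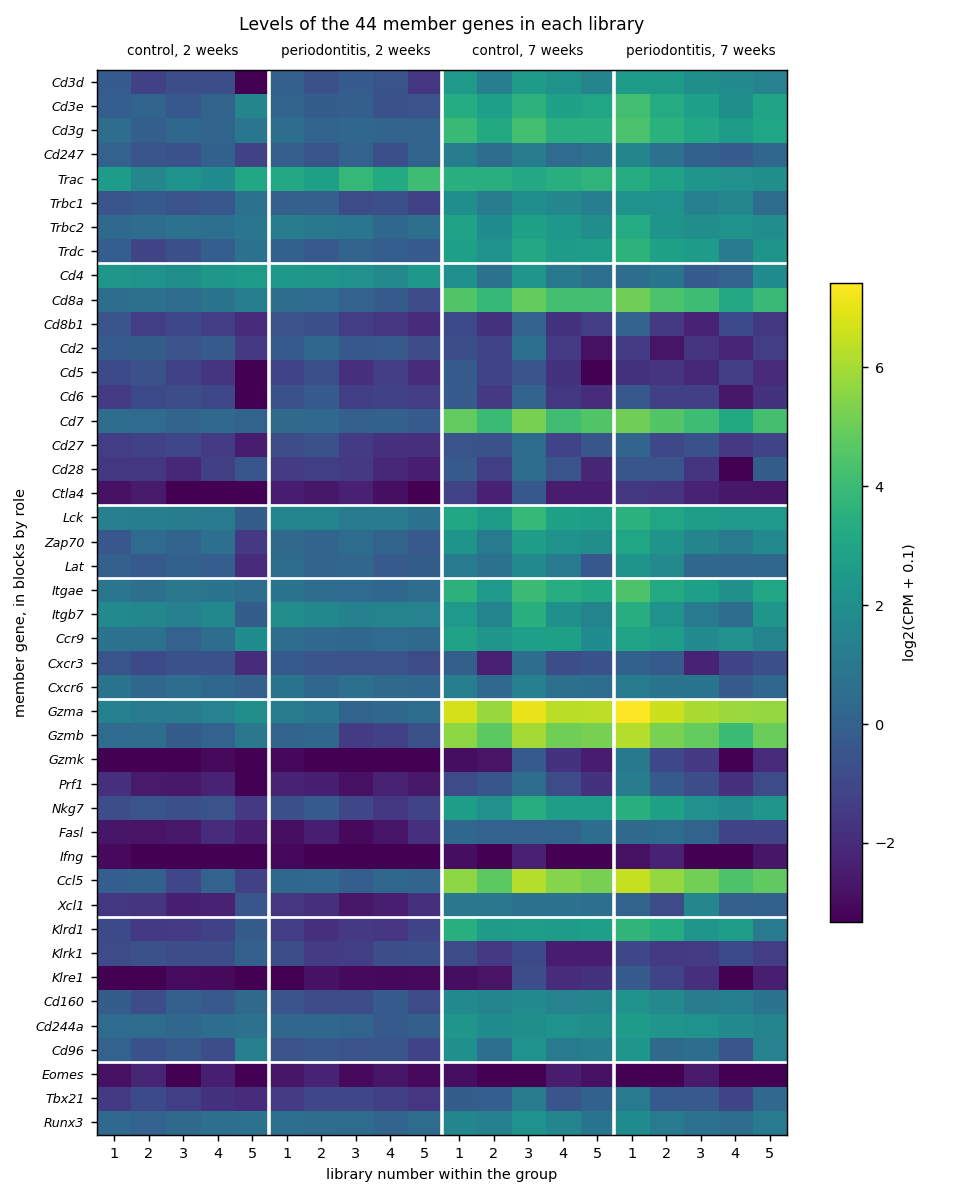
Heat map of log2(CPM + 0.1) for the 44 member genes (vertical axis, in blocks by role) in each of the 20 libraries (horizontal axis, library number within each group). The right blocks, the libraries of 7 weeks, are brighter for the granzymes, Ccl5, Cd7, Cd8a and the CD3 genes, and darker for Cd4 and Cd2, while Trac is bright in all 4 groups.

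With age, 29 of 39 tested members rose and 1 fell in control pups (edgeR's quasi-likelihood test, Benjamini-Hochberg adjusted p under 0.05 over 17464 genes). Of all genes tested 27.1% rose and 34.4% fell in that comparison. In periodontitis pups 27 of 39 rose and 3 fell, against 30.4% and 35.7% of all genes. The same 27 members rose in both kinds of pup. The members' median log2 fold change was 1.93 in control and 1.99 in periodontitis pups, where the median of all genes was -0.13 and -0.11. In 25 of the 39 tested members every control library of 7 weeks lay above every one of 2 weeks (22.5% of all genes tested did so), and in periodontitis pups 22 were separated in this way (24.9%). All these numbers of members that rose or were separated include Fasl, Prf1 and Xcl1. Those genes met the filter on low counts only through the libraries of 7 weeks, so their rise was favoured in advance. A call with age was common in this tissue, with 61.5% and 66.1% of all genes called in either direction. Markers of other cells moved with age too: 6 enterocyte genes went from 30200 and 38900 CPM to 82200 and 79800 CPM, and 5 stromal and smooth muscle genes from 2510 and 2740 CPM to 675 and 763 CPM (mean sums, control and periodontitis pups). The sum of 6 plasma cell genes went from 163 and 150 CPM to 2410 and 1460 CPM, with a median log2 fold change of 3.98 and 3.03, above that of the members. The sum of 5 exocrine pancreas genes went from 290 and 600 CPM to 8.87 and 9.44 CPM. Their part in the member values was not tested.

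**Figure D2:**
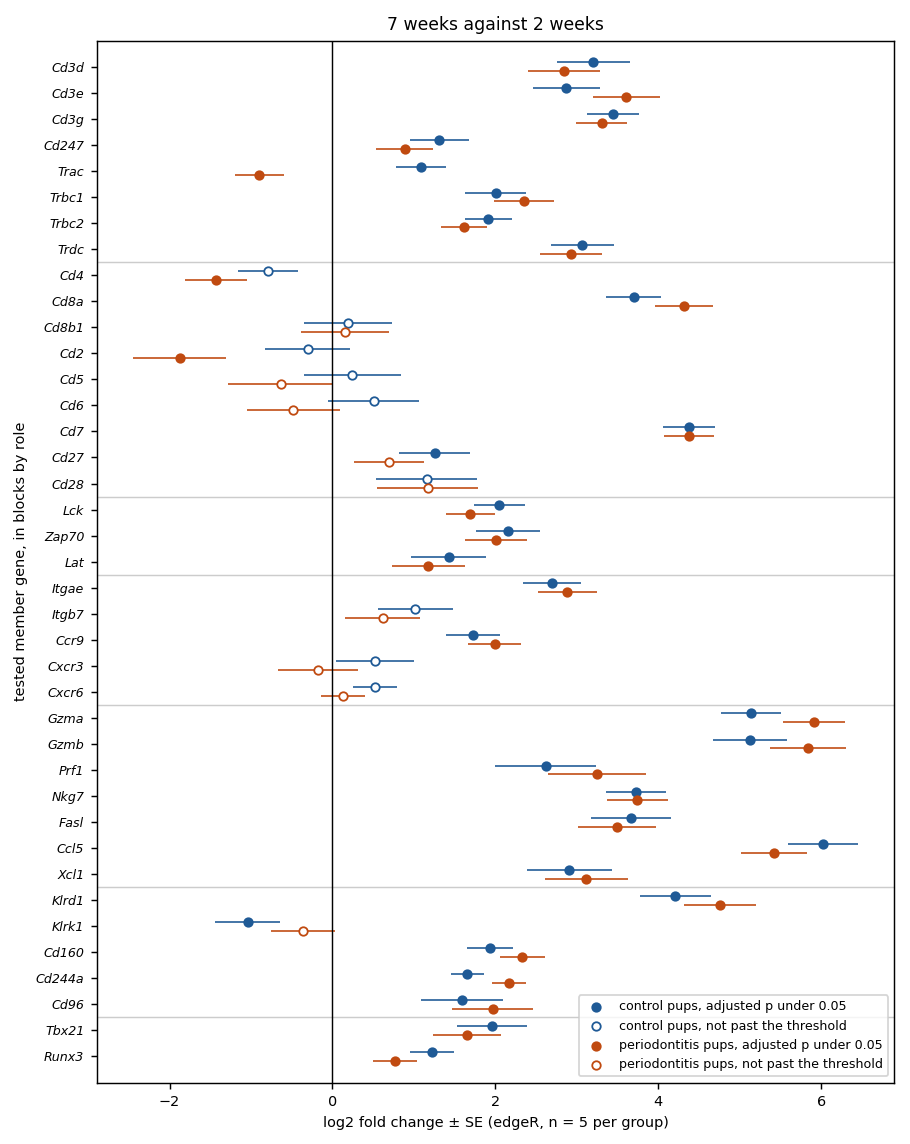
Log2 fold change ± SE of 7 against 2 weeks (horizontal axis) for the 39 tested members (vertical axis, in blocks by role), with control pups in blue, periodontitis pups in orange and filled points for an adjusted p under 0.05. Ccl5 (6.02 in control pups) and Gzma (5.91 in periodontitis pups) lie farthest to the right, and Trac is the member with filled points on both sides of 0.

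Among the 8 receptor and CD3 genes, all 8 rose with age in control pups, and 7 rose while Trac fell in periodontitis pups. Of all genes tested 27.1% rose in control and 30.4% in periodontitis pups, and 34.4% and 35.7% fell. Cd3e, a CD3 chain needed for surface receptor, stood at 0.833, 0.989, 0.682, 0.99 and 2.9 CPM in control libraries 1 to 5 of 2 weeks and at 0.972, 0.81, 0.852, 0.529 and 0.581 CPM in periodontitis libraries 1 to 5. At 7 weeks it stood at 9.95, 6.57, 12.1, 6.97 and 7.77 CPM in control and at 18, 9.67, 6.51, 3.93 and 7.72 CPM in periodontitis libraries. Every library of 7 weeks was thus above every library of 2 weeks. Cd3e had a log2 fold change of 2.87 ± 0.41 (SE) in control and 3.61 ± 0.41 in periodontitis pups (edgeR adjusted p = 9.44e-06 and 5.49e-07).

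Cd3g, the gamma chain of CD3, stood at 1.32, 0.851, 1.09, 0.99 and 1.77 CPM in control libraries 1 to 5 of 2 weeks and at 15.4, 9.12, 18.1, 10.5 and 10.8 CPM in those of 7 weeks. In periodontitis pups it stood at 1.36, 1, 1.14, 1.02 and 0.961 CPM, then at 20.4, 11.7, 8.63, 5.73 and 7.9 CPM. It had the largest rise of the block in control pups, with a log2 fold change of 3.45 ± 0.32 (edgeR adjusted p = 8.36e-08), and rose by 3.3 ± 0.31 in periodontitis pups (6.01e-08). Cd3d rose by 3.2 and 2.85 on the log2 scale. Cd247, the zeta chain that carries most of the signalling motifs, rose less, by 1.31 and 0.89. In periodontitis pups the call of Cd247 was lost in 7 of 21 alternatives, among them without periodontitis library 1 of 7 weeks (log2 fold change 0.45, edgeR adjusted p = 0.225). Of the exonic bases of Cd247 56.4% overlap Pou2f1 on the other strand, and whether counting used strand is not stated.

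Trdc, the constant region of the delta chain (chr14:54142851-54148868, GRCm38, plus strand), marks gamma delta T cells. It stood at 0.833, 0.368, 0.523, 0.814 and 1.53 CPM in control libraries 1 to 5 of 2 weeks and at 6.67, 4.36, 8.85, 6.03 and 6.2 CPM in those of 7 weeks. In periodontitis pups the values were 0.916, 0.703, 1.01, 0.819 and 0.738 CPM, then 12.2, 6.96, 5.96, 2.12 and 4.69 CPM. The ages did not overlap in either kind of pup, and the log2 fold changes were 3.07 ± 0.39 and 2.93 ± 0.38 (edgeR adjusted p = 3.61e-06 and 2.51e-06). The beta chain constant genes rose as well, Trbc1 by 2 and 2.35 and Trbc2 by 1.91 and 1.62 on the log2 scale. These 2 genes are near-identical in their coding sequence, so how reads were divided between them is uncertain.

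Trac, the constant region of the alpha chain (chr14:54220521-54224206, GRCm38, plus strand), was the one receptor gene that rose in control pups and fell in periodontitis pups. In control libraries 1 to 5 it stood at 6.02, 3.04, 4.5, 3.61 and 8.61 CPM at 2 weeks and at 11.1, 10.7, 8.82, 10.6 and 12.8 CPM at 7 weeks. In periodontitis libraries 1 to 5 it stood at 8.75, 6.88, 14.1, 9.38 and 17.1 CPM at 2 weeks and at 9.87, 7.16, 4.95, 4.18 and 3.96 CPM at 7 weeks. Control pups of 7 weeks were all above those of 2 weeks, whereas periodontitis pups of both ages overlapped. With age its log2 fold change was 1.09 ± 0.31 in control pups (edgeR adjusted p = 0.0045) and -0.9 ± 0.3 in periodontitis pups (0.0135). Without periodontitis library 5 of 2 weeks, the highest of its group, the fall was by 0.7 on the log2 scale with an edgeR adjusted p of 0.0521.

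Per length of exon, Trac was the most abundant of the 44 members at 2 weeks. It stood at 5.51 ± 2.39 CPM per kb in control and 12 ± 4.51 CPM per kb in periodontitis pups (SD, n = 5), where Cd3g stood at 0.368 ± 0.11 and 0.335 ± 0.0495 CPM per kb. The ratio of Trac to Cd3g per kb was 14.5 ± 1.97 in control and 36.8 ± 16.4 in periodontitis pups at 2 weeks, and 3.2 ± 1.06 and 2.03 ± 0.345 at 7 weeks (SD, n = 5). The lowest ratio at 2 weeks (12.5) was above the highest at 7 weeks (4.14). At 7 weeks Gzma, Ccl5, Gzmb and Cd7 all stood above Trac per kb. Of 5 genes carried by immature thymocytes, Rag1, Rag2, Ptcra and Dntt held 22, 2, 3 and 21 counts over the 5 periodontitis libraries of 2 weeks together, and 17, 2, 0 and 30 over the 5 control libraries. The fifth, Cd1d1, which many other cells carry, held nearly all of the list's sum, at 2.32 ± 0.374 CPM among control and 3.21 ± 0.377 CPM among periodontitis pups of 2 weeks (SD, n = 5), a log2 fold change of 0.46 that did not pass (edgeR adjusted p = 0.438). It fell with age by 0.8 and 1.63 on the log2 scale. The part of such cells in the Trac values was not tested.

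**Figure D3:**
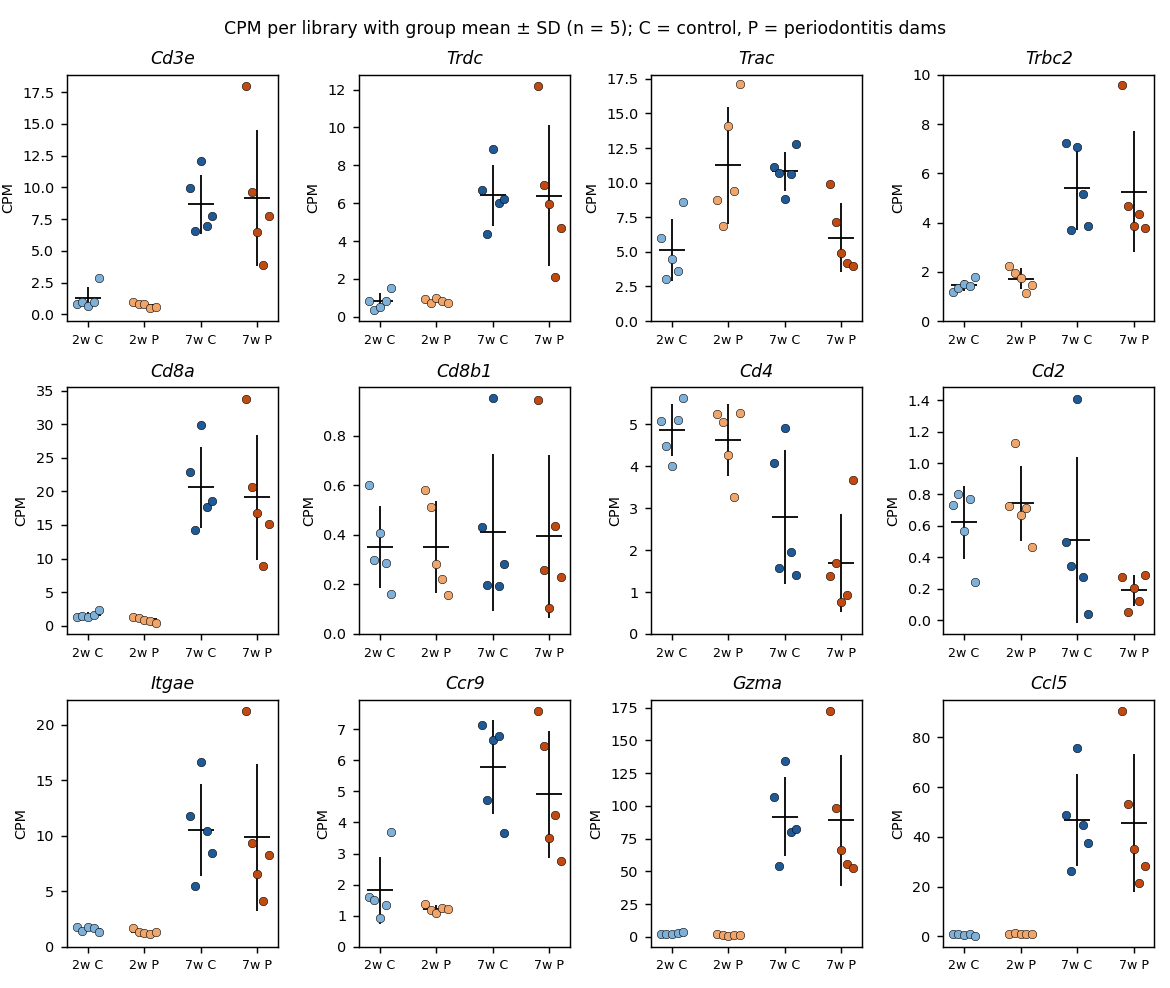
CPM of 12 members in each library (points) with the group mean and SD (bars, n = 5), 1 panel per gene, each with its own vertical axis; the horizontal axis gives the 4 groups (2w and 7w, C for control and P for periodontitis dams). Cd8a, Gzma and Ccl5 are near the floor of their panels at 2 weeks, Cd8b1 lies within 0.104 to 0.951 CPM in all groups, and Trac is highest in periodontitis pups at 2 weeks and in control pups at 7 weeks.

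Of the 9 tested coreceptor, adhesion and costimulation genes, 3 rose and 0 fell with age in control pups, and 2 rose and 2 fell in periodontitis pups. These are few genes, and the shares that rose are near or below those of all genes (27.1% and 30.4%). Cd8a, the alpha chain of CD8 (chr6:71373427-71379173, GRCm38, plus strand), stood at 1.36, 1.47, 1.3, 1.67 and 2.33 CPM in control libraries 1 to 5 of 2 weeks and at 22.9, 14.2, 29.8, 17.7 and 18.5 CPM in those of 7 weeks. In periodontitis pups it stood at 1.36, 1.24, 0.933, 0.767 and 0.469 CPM, then at 33.8, 20.7, 16.8, 8.97 and 15.2 CPM. The lowest library of 7 weeks was far above the highest of 2 weeks. Cd8a had log2 fold changes of 3.7 ± 0.34 (13-fold) and 4.32 ± 0.35 (19.9-fold), with edgeR adjusted p of 8.36e-08 and 1.01e-08.

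Cd8b1 encodes the beta chain of CD8, found on conventional CD8 T cells and absent from the CD8 alpha homodimer. It stood at 0.6, 0.299, 0.409, 0.286 and 0.161 CPM in control libraries 1 to 5 of 2 weeks and at 0.431, 0.196, 0.951, 0.195 and 0.282 CPM in those of 7 weeks. Periodontitis libraries gave 0.58, 0.511, 0.284, 0.222 and 0.156 CPM, then 0.944, 0.256, 0.104, 0.436 and 0.231 CPM. The ages overlapped fully, and the log2 fold changes of 0.19 ± 0.54 and 0.15 ± 0.54 did not pass (edgeR adjusted p = 0.777 and 0.819). Per kb, the ratio of Cd8b1 to Cd8a was therefore 0.588 ± 0.35 in control and 0.866 ± 0.154 in periodontitis pups at 2 weeks, and 0.0445 ± 0.0201 and 0.0541 ± 0.0413 at 7 weeks (SD, n = 5). Its lowest value at 2 weeks (0.169) was above its highest at 7 weeks (0.119). That lowest value came from control library 5, which held 2 counts of Cd8b1, so the separation rests on few reads. Over 5 libraries each, Cd8b1 held 77 and 89 counts at 2 weeks and 58 and 47 at 7 weeks (control and periodontitis pups).

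Cd4 had values below 0 with age in both kinds of pup, and passed in 1 of them. In control libraries 1 to 5 it stood at 5.09, 4.49, 4.02, 5.11 and 5.63 CPM at 2 weeks and at 4.08, 1.57, 4.92, 1.95 and 1.41 CPM at 7 weeks. In periodontitis libraries it stood at 5.25, 5.05, 4.28, 3.27 and 5.28 CPM, then at 1.38, 1.69, 0.762, 0.935 and 3.67 CPM. Libraries 1 and 3 of the control pups, and library 5 of the periodontitis pups, kept the higher values at 7 weeks. The log2 fold change was -0.79 ± 0.37 in control pups, which did not pass (edgeR adjusted p = 0.0724), and -1.43 ± 0.38 in periodontitis pups (0.00283). In control pups Cd4 passed in 4 of 21 alternatives, among them without control library 1 (-0.97, edgeR adjusted p = 0.0457) or 3 of 7 weeks (-1.1, 0.0186). The ratio of Cd4 to Cd8a per kb was 2.77 ± 0.423 and 5.06 ± 2.86 at 2 weeks, and 0.115 ± 0.0383 and 0.0926 ± 0.0739 at 7 weeks (control and periodontitis pups, SD, n = 5). Mouse myeloid cells can carry Cd4 transcripts too: the summed level of 8 macrophage and dendritic cell genes was 135 ± 47 and 205 ± 18.3 CPM at 2 weeks and 89.3 ± 41.4 and 61.9 ± 37.5 CPM at 7 weeks, and its part in the Cd4 values was not tested.

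Cd2, an adhesion receptor of T cells that some B cells also carry, stood at 0.736, 0.805, 0.568, 0.77 and 0.241 CPM in control libraries 1 to 5 of 2 weeks and at 0.497, 0.343, 1.41, 0.272 and 0.0402 CPM in those of 7 weeks. Periodontitis libraries gave 0.729, 1.13, 0.67, 0.716 and 0.469 CPM, then 0.275, 0.0512, 0.208, 0.125 and 0.289 CPM. All 5 periodontitis libraries of 7 weeks were below all 5 of 2 weeks (28.3% of all genes were separated in that direction). The fall of Cd2 in periodontitis pups, by 1.88 ± 0.57 on the log2 scale, passed (edgeR adjusted p = 0.00696), and the control value of -0.3 ± 0.52 did not (0.627). Without control library 3 of 7 weeks, at 1.41 CPM, the control value of Cd2 was -1.14 and passed (edgeR adjusted p = 0.0477). Of 12 B cell and follicle genes, 7 fell in periodontitis pups and 0 passed in control pups, where 35.7% and 34.4% of all genes fell. Of 8 macrophage and dendritic cell genes, 5 fell and 1 rose in periodontitis pups, and 1 fell and 1 rose in control pups. When the mean level of the 12 B cell and follicle genes was a covariate, the values in periodontitis pups were -0.15 for Cd2 and -0.82 for Cd4, and neither passed (edgeR adjusted p = 0.865 and 0.17). That covariate itself went with age from 0.61 to -1.66 in these pups (mean log2 CPM). With it the share of all genes called fell from 66.1% to 50.1%. It takes up part of the age difference, so the lost calls give no cause.

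Cd7, a surface protein of T and natural killer cells, had the largest rise of this block. It stood at 1.32, 1.27, 1.02, 1.17 and 0.966 CPM in control libraries 1 to 5 of 2 weeks and at 28.6, 15.8, 37.2, 17.2 and 22.5 CPM in those of 7 weeks. In periodontitis pups it stood at 1.2, 1.17, 0.893, 0.904 and 0.76 CPM, then at 33.7, 23.5, 17.1, 9.22 and 19.1 CPM. Its log2 fold change was 4.38 in both kinds of pup, with an SE of 0.32 and 0.31 (edgeR adjusted p = 5.09e-09 and 3.1e-09). Cd27, a costimulatory receptor, rose in control pups (1.25 ± 0.44, adjusted p = 0.0175 by edgeR) but not past the threshold without control library 3 of 7 weeks (0.89, 0.0856), and its value in periodontitis pups was 0.7 ± 0.43 (0.161). Cd5 and Cd6, scavenger-type receptors of conventional T cells, and Cd28, the costimulatory receptor for Cd80 and Cd86, passed in neither kind of pup, with log2 fold changes from -0.64 (Cd5, periodontitis) to 1.17 (Cd28, periodontitis). Cd28 passed in 2 of 20 alternatives in each kind of pup, among them in control pups without control library 5 of 2 weeks (1.45, edgeR adjusted p = 0.049) and in periodontitis pups without library 4 of 7 weeks (1.44, 0.0306). Levels of these 3 genes were low, at most 1.34 CPM in any library.

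All 3 genes of proximal signalling rose with age in both kinds of pup, where 27.1% (control) and 30.4% (periodontitis) of all genes rose. Zap70, the kinase that docks on phosphorylated CD3 and zeta chains, stood at 0.659, 1.27, 1.05, 1.41 and 0.241 CPM in control libraries 1 to 5 of 2 weeks and at 4.68, 2.11, 6.49, 4.36 and 3.82 CPM in those of 7 weeks. Values in the periodontitis pups were 1.2, 1.04, 1.28, 0.972 and 0.693 CPM, then 7.78, 4.66, 2.91, 2.06 and 3.44 CPM. The ages were separate in both kinds of pup, with log2 fold changes of 2.16 ± 0.39 and 2.01 ± 0.38 (edgeR adjusted p = 0.000111 and 0.000152). Lck, the kinase bound to CD4 and CD8, rose by 2.05 and 1.69 on the log2 scale. Lat, the adaptor that Zap70 phosphorylates, rose by 1.43 and 1.18. The call of Lat in periodontitis pups was lost in 5 of 21 alternatives, each time with a value of 0.71 to 1.11. The lowest was without periodontitis library 1 of 7 weeks (edgeR adjusted p = 0.16).

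Of the 5 homing and retention receptors, Itgae and Ccr9 rose and Itgb7, Cxcr3 and Cxcr6 did not pass, in both kinds of pup. These are few genes, and 2 of 5 is not far from the shares of all genes that rose (27.1% and 30.4%). Itgae, the alpha E chain that binds E-cadherin on epithelium, stood at 1.78, 1.45, 1.82, 1.65 and 1.37 CPM in control libraries 1 to 5 of 2 weeks and at 11.8, 5.44, 16.6, 10.4 and 8.41 CPM in those of 7 weeks. Periodontitis libraries 1 to 5 held 1.68, 1.34, 1.24, 1.11 and 1.32 CPM, then 21.2, 9.31, 6.51, 4.11 and 8.24 CPM. The ages were separate, and the log2 fold changes were 2.69 ± 0.36 and 2.88 ± 0.36 (edgeR adjusted p = 4.71e-06 and 1.36e-06). Itgb7, the partner chain that also pairs with alpha 4 integrin, had values of 1.02 ± 0.46 and 0.61 ± 0.46 (0.0627 and 0.245). In control pups Itgb7 passed in 4 of 21 alternatives, among them DESeq2 (1.04, adjusted p = 0.0371) and without control library 2 or 5 of 7 weeks (both 1.18, edgeR adjusted p = 0.0436 and 0.0434).

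Ccr9, the receptor for the small intestinal chemokine CCL25, stood at 1.59, 1.52, 0.932, 1.36 and 3.7 CPM in control libraries 1 to 5 of 2 weeks and at 7.13, 4.71, 6.66, 6.77 and 3.66 CPM in those of 7 weeks. Among periodontitis pups the values were 1.38, 1.17, 1.1, 1.26 and 1.23 CPM, then 7.59, 6.45, 3.5, 4.24 and 2.75 CPM. Control library 5 of 2 weeks was the one library of that age that reached the range of 7 weeks. The log2 fold changes were 1.73 ± 0.33 and 1.99 ± 0.33 (edgeR adjusted p = 0.000187 and 3.43e-05). Cxcr3, a receptor for interferon-induced chemokines, and Cxcr6, a receptor for CXCL16, had values between -0.17 and 0.53 that did not pass, except that Cxcr6 passed in control pups in 1 of 21 alternatives, with Ddx3y as a covariate (0.72, edgeR adjusted p = 0.038). Of the exonic bases of Ccr9 18.8% overlap an unnamed locus on the other strand, as do 10.8% of those of Cd7 and 18.7% of those of Xcl1.

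The cytotoxic and secreted products moved most: all 7 tested members of this block rose in both kinds of pup, with a median log2 fold change of 3.73 in control and 3.75 in periodontitis pups. Of all genes tested 27.1% and 30.4% rose. Fasl, Prf1 and Xcl1 met the filter on low counts only through the libraries of 7 weeks, so their rise was favoured in advance. Gzma, granzyme A, a protease released into target cells (chr13:113093825-113100981, GRCm38, minus strand), stood at 2.52, 1.98, 2.21, 2.66 and 3.86 CPM in control libraries 1 to 5 of 2 weeks and at 107, 54.4, 134, 80 and 82.2 CPM in those of 7 weeks. The periodontitis libraries stood at 2.19, 1.77, 0.994, 1.13 and 1.3 CPM, then at 172, 98.3, 66.3, 55.4 and 52.8 CPM. Gzma had log2 fold changes of 5.14 ± 0.37 (35.3-fold) and 5.91 ± 0.38 (60.2-fold), with edgeR adjusted p of 4.97e-09 and 8.95e-10. Per kb Gzma was the most abundant member at 7 weeks, at 91 ± 30 CPM per kb in control and 88.4 ± 49.5 CPM per kb in periodontitis pups (SD, n = 5).

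Gzmb, granzyme B, which activates caspases in the target (chr14:56258838-56262260, GRCm38, minus strand), stood at 1.26, 1.33, 0.796, 0.946 and 1.85 CPM in control libraries 1 to 5 of 2 weeks and at 48.7, 26.4, 63, 33.9 and 36.8 CPM in those of 7 weeks. Values in the periodontitis pups were 1.05, 1.13, 0.264, 0.341 and 0.537 CPM, then 74.8, 37.8, 29.2, 15.8 and 32.4 CPM. It rose by 5.13 ± 0.45 and 5.84 ± 0.47 on the log2 scale (edgeR adjusted p = 5.2e-08 and 9.43e-09).

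Ccl5, a chemokine stored by cytotoxic lymphocytes (chr11:83525778-83530518, GRCm38, minus strand), stood at 0.814, 0.92, 0.387, 0.946 and 0.322 CPM in control libraries 1 to 5 of 2 weeks and at 48.6, 26.2, 75.9, 44.8 and 37.5 CPM in those of 7 weeks. Periodontitis libraries 1 to 5 held 1.1, 1.19, 0.832, 1.13 and 1.05 CPM, then 90.4, 53.3, 35, 21.6 and 28.1 CPM. Its log2 fold change of 6.02 ± 0.43 in control pups (65.1-fold) was the largest of the 39 tested members, and in periodontitis pups it was 5.42 ± 0.41 (edgeR adjusted p = 4.44e-09 and 4.29e-09).

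The other 4 tested products had lower levels and smaller rises. Nkg7, a granule membrane protein, rose by 3.73 and 3.75 on the log2 scale in control and periodontitis pups. Fasl, the ligand that triggers the death receptor Fas, rose by 3.66 and 3.49, from means of 0.0814 and 0.0746 CPM to 1.07 and 0.85 CPM. Xcl1, a chemokine for cross-presenting dendritic cells, rose by 2.91 and 3.11, and in periodontitis pups of 7 weeks library 3 held 3.05 CPM where the other libraries held 0.46 to 0.983 CPM. Prf1, the pore-forming perforin, rose by 2.62 and 3.25 but stayed at 0.61 ± 0.405 and 0.803 ± 0.783 CPM at 7 weeks (SD, n = 5), far below the granzymes. Over 5 libraries of 2 weeks each, control and periodontitis pups held 16 and 18 counts of Fasl. They held 20 and 21 of Prf1 and 38 and 36 of Xcl1. No library of 2 weeks held more than 12 counts of any of these genes. The numbers of members that rose with age include Fasl, Prf1 and Xcl1.

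The 250 bases before the RefSeq start of 3 genes of this block are shown because the block rose together and no annotated exon (GENCODE M21) lies in these windows. Capitals mark the letters TGTGGT or their reverse complement ACCACA, the core recognised by RUNX factors such as the member Runx3. Sequences run 5′ to 3′ on the gene's strand, from RefSeq on GRCm38.p6: Gzma at chr13:113100982-113101231 (minus strand), Gzmb at chr14:56262335-56262584 (minus strand) and Fasl at chr1:161788496-161788745 (minus strand). The RefSeq start of Gzmb lies 74 bases upstream of the outermost GENCODE start.
Gzma: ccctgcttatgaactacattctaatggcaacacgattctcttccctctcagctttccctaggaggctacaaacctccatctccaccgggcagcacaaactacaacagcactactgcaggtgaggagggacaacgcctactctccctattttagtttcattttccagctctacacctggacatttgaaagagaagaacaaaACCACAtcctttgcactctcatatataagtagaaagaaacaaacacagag
Gzmb: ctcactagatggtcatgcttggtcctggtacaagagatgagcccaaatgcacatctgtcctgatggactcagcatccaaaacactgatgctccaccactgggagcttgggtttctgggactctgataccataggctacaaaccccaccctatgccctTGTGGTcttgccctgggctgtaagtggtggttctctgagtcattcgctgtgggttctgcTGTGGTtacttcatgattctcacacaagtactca
Fasl: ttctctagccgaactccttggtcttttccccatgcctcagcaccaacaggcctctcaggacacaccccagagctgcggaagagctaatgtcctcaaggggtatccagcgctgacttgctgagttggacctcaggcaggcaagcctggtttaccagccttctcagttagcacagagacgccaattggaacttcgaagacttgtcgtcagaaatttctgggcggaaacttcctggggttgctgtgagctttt
The Gzma window has 1 such match, 50 to 45 bases before the start. That of Gzmb has 2, at 93 to 88 and 34 to 29 bases before the start, and that of Fasl has none. Promoters were found for 31 members, with 37 starts, and 15 of these 37 (40.5%) hold the letters on either strand, against 14% of 32851 starts of all genes in windows of the same length. The letters GGTGTGA or TCACACC, a core read by T-box factors such as Tbx21 and Eomes, are in 4 of the 37 (10.8%) and in 3.33% of all starts. These matches describe the letters in the windows, and binding was not measured.

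Among the natural killer type receptors, which many intraepithelial lymphocytes share with natural killer cells, 4 of 5 tested rose in both kinds of pup. The shares of all genes that rose were 27.1% in control and 30.4% in periodontitis pups. Klrd1 (CD94), which pairs with NKG2 chains to read nonclassical MHC class I, stood at 0.426, 0.253, 0.273, 0.33 and 0.805 CPM in control libraries 1 to 5 of 2 weeks and at 10.5, 6.03, 6.4, 5.84 and 6.6 CPM in those of 7 weeks. Among periodontitis pups the values were 0.299, 0.192, 0.244, 0.222 and 0.38 CPM, then 13.1, 10.1, 4.92, 6.36 and 2 CPM. It rose by 4.21 ± 0.44 and 4.75 ± 0.44 on the log2 scale (edgeR adjusted p = 3.13e-07 and 4.75e-08).

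Cd244a (2B4), a receptor for Cd48, had one of the tightest patterns of all members. It stood at 1.24, 1.31, 1.14, 1.36 and 1.53 CPM in control libraries 1 to 5 of 2 weeks and at 4.71, 3.63, 3.97, 4.32 and 3.98 CPM in those of 7 weeks. The periodontitis libraries stood at 1.08, 1.11, 0.994, 0.716 and 0.849 CPM, then at 5.86, 4.71, 4.54, 3.55 and 2.78 CPM. The log2 fold changes with age were 1.66 ± 0.2 and 2.17 ± 0.21 (edgeR adjusted p = 2.27e-06 and 6.32e-08). Cd160, a receptor for HVEM, rose by 1.93 and 2.33 on the log2 scale, and Cd96, a receptor for CD155, by 1.59 and 1.97.

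Klrk1 (NKG2D), the receptor for stress ligands of the Raet1 and H60 families, was the one member that fell in control pups, from 0.569 ± 0.18 to 0.259 ± 0.184 CPM (SD, n = 5). The fall was by 1.04 ± 0.4 on the log2 scale (edgeR adjusted p = 0.0308) and was lost in 8 of 20 alternatives. Among these were the removal of control library 5 of 2 weeks (-0.88, adjusted p = 0.057) and of control library 2, 4 or 5 of 7 weeks (-1.02, -0.81 and -0.82, adjusted p = 0.0558, 0.0824 and 0.081 by edgeR). In periodontitis pups the value was -0.36 ± 0.39 (0.43). The 5 genes listed for natural killer and group 1 innate lymphoid cells summed to 21.9 and 15.3 CPM at 2 weeks and to 8.47 and 9.98 CPM at 7 weeks (control and periodontitis pups). Itga2, which other cells carry too, held most of each sum and fell with age by 1.42 and 0.66 on the log2 scale (edgeR adjusted p = 0.000126 and 0.0294). Klrb1c, the other one tested, did not pass, and Klra8 and Klra4 were at 0 in all 5 control libraries of 2 weeks. At 7 weeks Ncr1 was at 0.128 ± 0.0209 and 0.142 ± 0.128 CPM, Klra8 at 0.0254 ± 0.0362 and 0.0203 ± 0.029 CPM and Klra4 at 0.0262 ± 0.0426 and 0.00786 ± 0.0176 CPM in control and periodontitis pups.

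Both tested transcription factors rose with age in both kinds of pup, where 27.1% (control) and 30.4% (periodontitis) of all genes rose. Tbx21 (T-bet), which directs cytotoxic and type 1 programmes, stood at 0.252, 0.437, 0.296, 0.198 and 0.161 CPM in control libraries 1 to 5 of 2 weeks and at 0.796, 0.834, 2.26, 0.623 and 0.926 CPM in those of 7 weeks. Values in the periodontitis pups were 0.28, 0.384, 0.386, 0.307 and 0.224 CPM, then 1.97, 0.716, 0.693, 0.374 and 1.19 CPM. The groups touched only in the periodontitis pups, where library 4 of 7 weeks (0.374 CPM) lay within the range of 2 weeks. The log2 fold changes were 1.96 ± 0.43 and 1.65 ± 0.42 (edgeR adjusted p = 0.000629 and 0.00177). Runx3, which sets the CD8 lineage and CD103, rose by 1.22 and 0.76. In periodontitis pups its call was lost without library 1 of 7 weeks (0.49, adjusted p = 0.0949) and with no filter on low counts (0.69, 0.0581).

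The 5 members too low for the test held few counts. Over 5 libraries each, control pups of 2 weeks, periodontitis pups of 2 weeks, control pups of 7 weeks and periodontitis pups of 7 weeks held 1, 1, 31 and 69 counts of Gzmk (granzyme K). In the same order Klre1, a receptor of the NKG2 type, held 2, 5, 26 and 34 counts, and Ctla4, the inhibitory receptor for Cd80 and Cd86, held 5, 14, 38 and 16. Eomes, a T-box factor of memory and natural killer cells, held 11, 13, 4 and 2.

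Ifng, interferon gamma, was near absent throughout. In control libraries 1 to 5 it stood at 0.0194, 0, 0, 0 and 0 CPM at 2 weeks and at 0.0332, 0, 0.0984, 0 and 0 CPM at 7 weeks, and in periodontitis libraries at 0.0187, 0, 0, 0 and 0 CPM, then 0.0393, 0.102, 0, 0 and 0.0579 CPM. No library held more than 3 counts, and 25.9% of its exonic bases are shared with another transcript on its strand, so a difference in Ifng was not detectable at this depth.

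Between dams at 2 weeks, 0 of 39 tested members passed with edgeR, where 0.0286% of all genes did (0.0172% higher and 0.0115% lower). Unadjusted p was under 0.05 for 4 members (2511 of all genes), and DESeq2 called 1 member, Trac, where it called 3.6% of all genes. The members' median log2 fold change was -0.09, beside 0.025 for all genes. Trac was the member with the smallest p: its mean was 11.2 ± 4.23 CPM among periodontitis pups against 5.16 ± 2.24 CPM among control pups (SD, n = 5). The groups overlapped through control library 5 (8.61 CPM), which lay within the range of the periodontitis libraries (6.88 to 17.1 CPM). The log2 fold change was 1.14 ± 0.3 (edgeR adjusted p = 0.0933, DESeq2 0.0229, 0.0229 to 0.32 over 21 alternatives). Without control library 5 it was 1.39 (edgeR adjusted p = 0.0531), and without periodontitis library 2 it was 1.28 and passed (0.0331).

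The next members in order of p at 2 weeks were all lower in periodontitis pups. Gzma, at 2.65 ± 0.731 and 1.47 ± 0.495 CPM, had a log2 fold change of -0.81 ± 0.33 (edgeR adjusted p = 0.266). Cd244a had -0.46 ± 0.2 (0.311) and was the one member whose 2 groups did not overlap at this age, with all periodontitis libraries below all control libraries (3.54% of all genes were separated in that direction). Cd8a had -0.73 ± 0.33 (0.319). All 5 tested natural killer type receptors had a value below 0, from -0.78 for Cd96 to -0.38 for Klrk1, and none passed. For Cd3e (-0.66 ± 0.4), Ccr9 (-0.51 ± 0.33) and Cd96 the shallow control library 5 was the highest of its group, and without it the values were -0.22, -0.14 and -0.28. That library was also the highest for Gzma, Cd8a, Cd244a, Klrd1, Klrk1 and Cd160. Over 21 alternatives the value of Gzma stayed between -1 and -0.67. That of Cd8a stayed between -0.89 and -0.56, and that of Cd244a between -0.52 and -0.37.

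**Figure D4:**
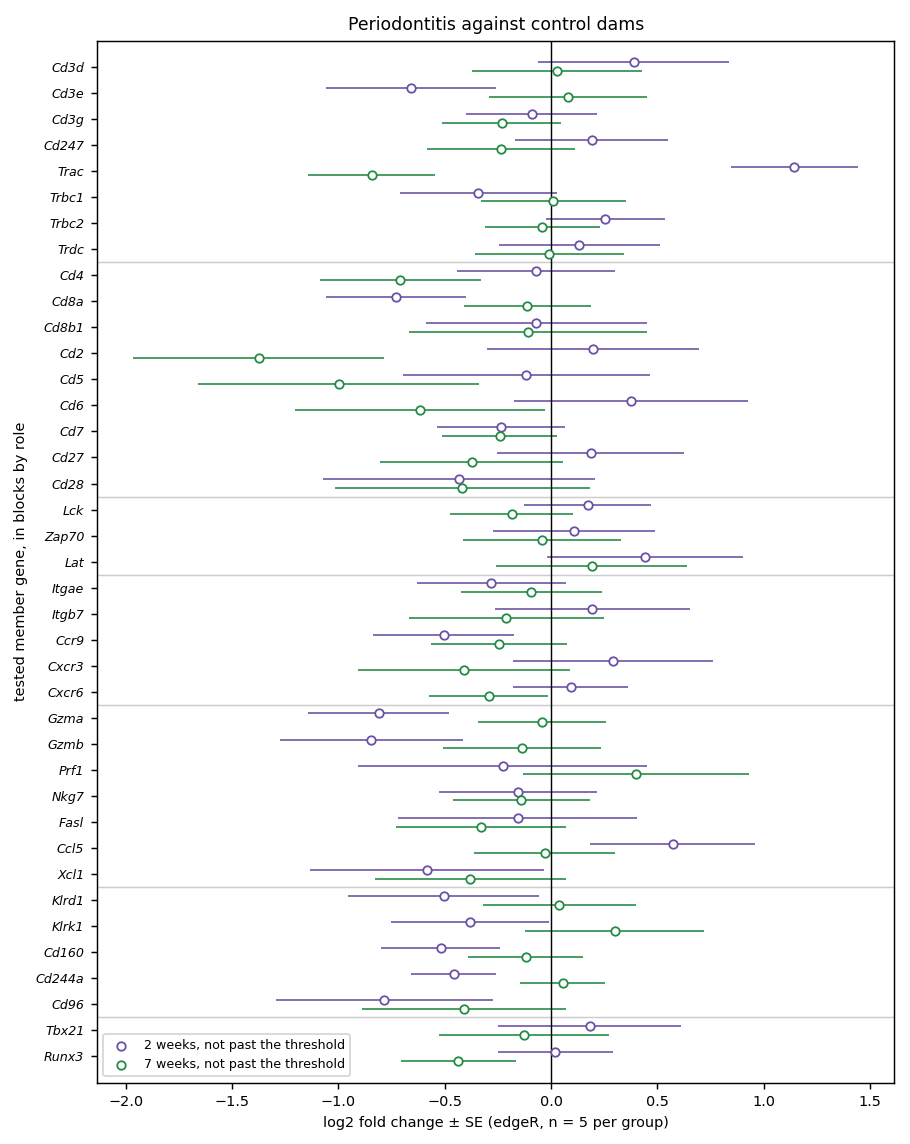
Log2 fold change ± SE of periodontitis against control pups (horizontal axis) for the 39 tested members (vertical axis, in blocks by role), at 2 weeks in purple and at 7 weeks in green; all points are open because none passed an adjusted p of 0.05. Trac lies farthest right at 2 weeks (1.14) and to the left at 7 weeks (-0.84), and Cd2 lies farthest left at 7 weeks (-1.38).

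Between dams at 7 weeks, 0 of 39 members passed with edgeR, where 0.0115% of all genes did (2 of 17464), and 0 passed with DESeq2 (0.144% of all genes). Unadjusted p was under 0.05 for 2 members (582 of all genes): Trac and Cd2. Trac was lower in periodontitis pups, at 6.02 ± 2.49 against 10.8 ± 1.42 CPM (SD, n = 5), with a log2 fold change of -0.84 ± 0.3 (edgeR adjusted p = 1). The groups overlapped through periodontitis library 1 (9.87 CPM) and control library 3 (8.82 CPM), and in no member were the groups separate (0.246% of all genes were separated upward and 0.281% downward). Cd2 had -1.38 ± 0.59 (edgeR adjusted p = 1) and Cd4 -0.71 ± 0.38 (1), in means of 0.513 against 0.19 CPM and 2.78 against 1.69 CPM.

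Most other members at 7 weeks differed little next to their spread. Log2 fold changes were -0.04 ± 0.3 for Gzma, -0.14 ± 0.37 for Gzmb, -0.03 ± 0.33 for Ccl5, -0.11 ± 0.3 for Cd8a, 0.08 ± 0.37 for Cd3e, -0.01 ± 0.35 for Trdc and -0.09 ± 0.33 for Itgae. With SEs of this size, such changes cannot be told from none. A change well above its SE could also miss the threshold, as that of Trac did (-0.84 ± 0.3). Of 39 members 31 had a value below 0, with a median of -0.14 (all genes: 0.022). That median rested on single libraries: it was -0.48 without periodontitis library 1 and 0.06 without control library 3.

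The spread within a group at 7 weeks was shared by many members. Periodontitis library 1 was the highest of its group for 32 of 39 tested members and library 4 was the lowest for 23, and control library 3 was the highest of its group for 28 and library 2 the lowest for 21. The median coefficient of variation of the members was 56% in periodontitis and 36.3% in control pups at 7 weeks, and 25.7% and 40.6% at 2 weeks. Trac was outside this pattern in control pups, where library 3, the highest for Cd3e, Cd3g, Cd8a and Gzma, was the lowest for Trac. Markers of other cells also differed between libraries of 7 weeks. The summed level of 12 B cell and follicle genes was 29.8, 25.9, 75.9, 23.2 and 3.58 CPM in control and 5.9, 2.61, 1.8, 18.6 and 8.76 CPM in periodontitis libraries 1 to 5.

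Between dams at 7 weeks all 12 of these B cell genes had values below 0 (median -2.53), with 0 past the threshold of edgeR. None of the 12 was at 0 in a whole group, and the sums ranged from 3.58 to 75.9 CPM in control and from 1.8 to 18.6 CPM in periodontitis pups. Cd4 and Cd2 were highest in control library 3, which was also the highest for the B cell genes. With their mean level as a covariate the dam values at 7 weeks were 0 for Cd4, 0.79 for Cd2 and -1.29 for Trac, all with an edgeR adjusted p of 1. The covariate itself differed between the dams, at 0.57 ± 1.71 among control and -1.66 ± 1.27 among periodontitis pups (mean log2 CPM, SD, n = 5). It thus takes up part of the dam difference. The part of these cells in the member values between dams was not tested beyond this.

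**Figure D5:**
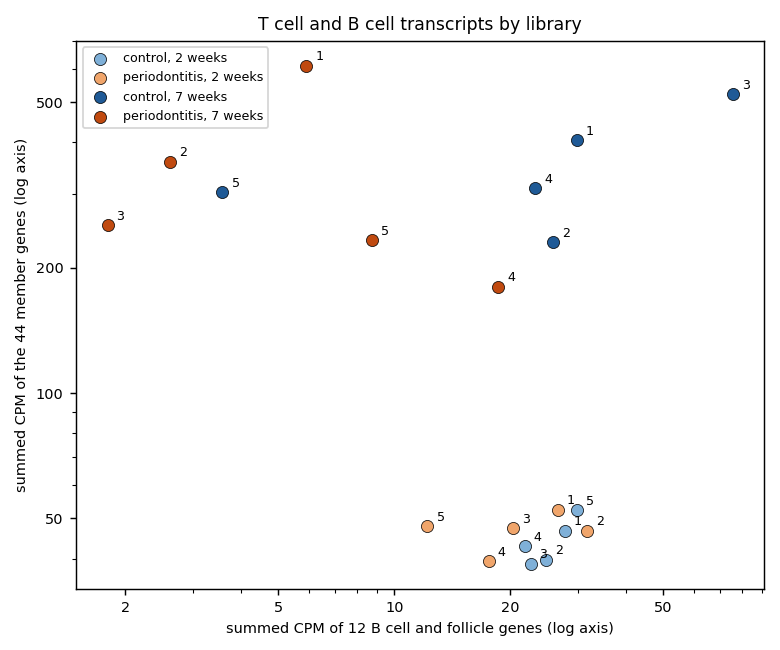
Summed CPM of the 44 members (vertical log axis) against summed CPM of 12 B cell and follicle genes (horizontal log axis), 1 point per library with its number, coloured by group. The libraries of 7 weeks lie at 180 to 612 CPM for the members and spread from 1.8 to 75.9 CPM for the B cell genes, and those of 2 weeks lie at 38.9 to 52.4 CPM for the members and 12.2 to 31.7 CPM for the B cell genes.

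The difference between the dam effects at the 2 ages, which is also the difference between the age effects of the 2 kinds of pup, passed for 0 of 39 members with edgeR (0.0229% of all genes passed). Unadjusted p was under 0.05 for 1 member (1537 of all genes) and DESeq2 called 1 (0.375% of all genes), in both cases Trac. The difference for Trac was -1.99 ± 0.43 on the log2 scale (edgeR adjusted p = 0.165), as Trac was higher in periodontitis pups at 2 weeks and lower at 7 weeks. It was -1.95 with DESeq2 (adjusted p = 0.00886), and edgeR also called it without control library 5 of 2 weeks (-2.23, adjusted p = 0.0479). Over 30 alternatives the value stayed between -2.37 and -1.79, with an adjusted p of 0.00886 to 0.415. The next members were Cd2 (-1.57 ± 0.77, edgeR adjusted p = 0.574) and Cd244a (0.51 ± 0.28, 0.601).

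A further list of 47 T cell genes outside the 44 was examined, of which 43 were in the table and 32 passed the filter. With age 14 rose and 7 fell in control pups (27.1% and 34.4% of all genes), and 14 rose and 9 fell in periodontitis pups (30.4% and 35.7% of all genes). The shares that fell are below those of all genes. Il2rb, the receptor chain through which interleukin 15 signals, stood at 1.61 ± 0.458 and 1.31 ± 0.225 CPM at 2 weeks and at 12.6 ± 3.06 and 10 ± 2.97 CPM at 7 weeks (control and periodontitis pups, SD, n = 5). Its log2 fold change was 2.93 ± 0.26 in both (edgeR adjusted p = 5.25e-08 and 2.94e-08). The chemokine Ccl4 rose by 2.95 and 2.88 and the kinase Txk by 1.95 and 1.08. Cd101, a surface receptor of T cells and myeloid cells, rose by 2.44 and 0.77.

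Other genes of the list fell. Tcf7 (TCF-1), a factor of naive and memory T cells, went from 6.97 ± 1.9 to 3.05 ± 1.07 CPM in control and from 8.79 ± 0.604 to 2.32 ± 0.84 CPM in periodontitis pups, with log2 fold changes of -1.19 and -1.91 (edgeR adjusted p = 0.000514 and 4.2e-06). Fyn, a kinase related to Lck with wide expression, fell by 1.43 and 1.86. Klrb1b, an inhibitory receptor of the NK1.1 family, fell by 1.02 and 1.77. Zbtb16 (PLZF), a factor of innate-like T cells, fell by 2.78 in control pups (edgeR adjusted p = 0.0015) and had -0.2 ± 0.62 in periodontitis pups (0.788). Its control libraries 1 to 5 of 2 weeks were uneven, at 1.88, 4.65, 5.55, 1.12 and 0.0805 CPM. Those of 7 weeks held 0.295 to 0.564 CPM, above library 5 of 2 weeks.

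Between dams 0 of these 32 genes passed at 2 weeks, at 7 weeks or in the difference. Icos, a costimulatory receptor of helper T cells, came closest: in control libraries 1 to 5 of 7 weeks it stood at 0.464, 0.343, 0.82, 0.195 and 0.201 CPM and in periodontitis libraries at 0.118, 0.0512, 0.0693, 0.125 and 0.116 CPM. All periodontitis libraries were below all control libraries (0.281% of all genes were separated in that direction). The log2 fold change was -2.06 ± 0.42 (edgeR adjusted p = 0.194), and the difference from the value at 2 weeks was -2.33 ± 0.53 (0.186). Cd101 was separated in the same direction at 7 weeks, at 6.03 to 7.24 CPM in control and 1.62 to 5.66 CPM in periodontitis libraries.

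Among 27 ligands and niche signals of the members' receptors, 25 were tested. With age 12 rose and 7 fell in control pups, where 27.1% of all genes rose and 34.4% fell. In periodontitis pups 13 rose and 9 fell (30.4% and 35.7% of all genes), so the shares that fell are near those of all genes. Il15 rose from 6.24 ± 1.15 to 37 ± 11 CPM in control and from 4.08 ± 1.43 to 43.2 ± 19.9 CPM in periodontitis pups, by 2.56 ± 0.32 and 3.4 ± 0.33 on the log2 scale (edgeR adjusted p = 2.95e-06 and 9.44e-08). H2-T3, the thymus leukemia antigen that binds the CD8 alpha homodimer, rose by 1.41 and 1.42, from 129 CPM in both kinds of pup to 341 ± 31.1 and 346 ± 46.5 CPM. Fas, the receptor of Fasl, rose by 1.62 and 1.67.

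Ligands of the homing receptors differed in direction. Cdh1, E-cadherin, the ligand of Itgae with Itgb7, rose by 0.92 and 1.29 on the log2 scale, and Ccl25, the ligand of Ccr9, by 0.55 and 1.53. Cxcl11, a ligand of Cxcr3, rose by 2.51 and 4.73. Madcam1, the ligand of alpha 4 beta 7 integrin on vessels, fell by 1.13 and 2.31. Raet1e, a ligand of Klrk1, fell by 3.4 and 2.31, from 1.15 ± 0.285 and 0.904 ± 0.34 CPM to 0.101 ± 0.0637 and 0.166 ± 0.12 CPM.

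No ligand passed between dams. At 2 weeks Ccl25 stood at 356, 340, 334, 382 and 551 CPM in control libraries 1 to 5 and at 313, 318, 182, 136 and 143 CPM in periodontitis libraries. All periodontitis libraries were below all control libraries (3.54% of all genes), and the log2 fold change was -0.84 ± 0.22 (edgeR adjusted p = 0.0877). Cxcl11 at 2 weeks was at 0.874 ± 0.509 and 0.219 ± 0.172 CPM, with -1.89 ± 0.51 (0.0975). At 7 weeks Ccl25 was at 576 ± 44.4 and 633 ± 35 CPM.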

How the data were processed

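Per the submitters' processing notes, cutadapt 4.8, FastQC 0.11.8, STAR 2.7.8a and RSEM 1.3.3 were used, with the builds GRCh38 and GRCm38 named; annotation release and strandedness are not given in the sources used here. The authors deposited expected counts per gene, not normalized, for 20 libraries of 14882204 to 42563229 counts. Of 55491 lines, 4 name no gene and hold 0 counts. Rounding to whole numbers changed 0 values.

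Counts were filtered by group (filterByExpr), scaled by TMM and tested with edgeR 4.0.16 in R 4.3.3 (robust quasi-likelihood F test, group means over all libraries, Benjamini-Hochberg over 17464 genes, threshold 0.05). The code was checked on simulated data. An SE is the log2 fold change over the square root of F. Values per kb used GENCODE M21 exon lengths. Alternatives were DESeq2 1.42.0, other filters and scaling, the compared groups alone, replicate number, the B cell score or the Y-linked gene Ddx3y as covariates, and libraries left out. Members, roles, lists and tests were chosen with earlier results of these data known. All members were described by role. Libraries were listed for the genes that always stand in the text and those of largest change with age in a role. They were also listed for the members of smallest p between dams at each age and in the difference between ages. Of the other lists, the 4 of smallest p in each comparison were eligible to be named.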

Additional observations from a re-analysis of the deposited data

Results flagged for a closer look

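In 4 of 72 groups examined, over the 19 members listed by library except Ifng, 1 library lay apart from the other 4. The gap was more of the group's range than Dixon's critical share of 0.71, where chance gives about 1 in 20. Cd3e was at 2.9 CPM in control library 5 of 2 weeks, where the next was 0.99 and the lowest 0.682 CPM (gap of 0.861 of the range). Ccr9 was at 3.7 CPM in the same library, which is the shallowest, beside 1.59 and 0.932 CPM (0.762). Klrd1 was at 10.5 CPM in control library 1 of 7 weeks, beside 6.6 and 5.84 CPM (0.837). Tbx21 was at 2.26 CPM in control library 3 of 7 weeks, beside 0.926 and 0.623 CPM (0.815).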

How the results depend on the processing

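Of 114 alternative numbers of members called, 108 stayed within 1.5 times. The number between dams at 2 weeks became 1 (Trac) with DESeq2 and without control library 5 of 2 weeks and periodontitis library 5 of 7 weeks together, and ran from 0 to 1 when 1 library was left out, with 1 without periodontitis library 2 of 2 weeks. The number for the difference between ages also became 1 (Trac) with DESeq2 and without both libraries, and ran from 0 to 1, with 1 without control library 5 of 2 weeks. At 7 weeks it was 0 in all 21 alternatives. With age it lay between 25 and 32 for control pups, and between 27 and 31 for the others. With Ddx3y as a covariate the numbers with age were 31 for control and 30 for periodontitis pups. With the replicate number as a block the numbers were 0 and 0 between dams, 0 for the difference and 30 and 30 with age. Of 30 pairs of libraries with the same replicate number, 4 correlated above 0.1 (range -0.397 to 0.288). Pairs of unlike number were not compared, so these values cannot tell whether the replicate numbers pair the samples. Of 60 calls of single members, 8 were lost in some alternative (26 of 1249 values) and 0 reversed. The fit to the compared groups alone gives no value for the difference between ages. Depth left 5 members untested, and SEs of 0.2 to 0.68 bound what the comparison of dams could show.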
